A study of Mus musculus with 18 samples.

Results

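The genes described are the colony-stimulating factors and the chains of their receptors that were named for description: the ligand genes Csf1, Csf2 and Csf3, and the receptor chain genes Csf3r, Csf2ra, Csf2rb and Csf2rb2. They were taken by gene symbol and not by a cut on measured values, though with earlier results of these data known. They are 7 of the 55291 genes of the deposited table. Of the 7, 6 reached 1 TPM (transcript abundance per length, scaled to one total per library) in at least 3 of the 18 libraries and were tested. Csf2 did not and is described by its values.

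Bulk RNA sequencing had been done on subcutaneous mouse tumours collected on day 14, in BALB/cJ or C57BL/6J mice. The injected cells were CT26, a mouse colon carcinoma line from the BALB/c strain, CT26-NY-ESO-1, which bears the name of a human tumour antigen, or LL/2, known as Lewis lung carcinoma and of C57BL origin. The labels do not tie a strain to a cell line. OK-432, a lyophilised Streptococcus pyogenes preparation used as an immune stimulant, was given into the tumour 24 hours before in 3 groups, written CT26 OK432, CT26NYESO1 OK432 and LL2 OK432. The matching groups without it are CT26 Ctrl, CT26NYESO1 Ctrl and LL2 Ctrl, with 3 libraries in each of the 6 groups. What the Ctrl tumours were injected with is not stated. Nor is it stated whether each library is 1 mouse, so the p-values compare differences with the scatter among libraries, some of which may be technical.

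Whole tumours were sequenced, so each value mixes tumour and host cells. Epithelial genes, looked at as a check of the carcinoma labels and named after their values were seen, differed between the tumour types. The keratin gene Krt8 averaged 204 ± 57.4 TPM in LL2 Ctrl, against 0.149 ± 0.0434 TPM in CT26 Ctrl (SD, n = 3 each). The epithelial adhesion gene Epcam was listed at 0 in all CT26 Ctrl libraries, but not throughout LL2 Ctrl or CT26NYESO1 Ctrl. Each library listed between 24036 and 25858 genes above 0. TPM keeps no depth, so the reads behind a value are unknown and no counting interval is given. A gene listed at exactly 0 may be a failed estimate.

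Colony-stimulating factors are secreted proteins that drive the production, survival and activation of myeloid cells. Csf1 (M-CSF) keeps macrophages alive, Csf2 (GM-CSF) acts on granulocytes, macrophages and dendritic cells, and Csf3 (G-CSF) drives neutrophil production and release from bone marrow. Csf3r encodes the G-CSF receptor, a single chain that pairs with itself. The GM-CSF receptor joins the ligand-binding alpha chain Csf2ra to the beta common chain Csf2rb, which the IL-3 and IL-5 receptors share, while the mouse has a neighbouring copy, Csf2rb2, whose product serves IL-3. In tumours, G-CSF and GM-CSF are known for expanding and recruiting neutrophils and related myeloid cells. Their messenger RNAs carry AU-rich elements, sites at which decay factors shorten the life of a transcript.

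The AU-rich sites of the 3 ligand genes are shown because they are the known point of post-transcriptional control of these genes. Each line is the 30 bases of the 3′ UTR with the most ATTTA copies, read 5′ to 3′ on the transcript strand from GENCODE M21 on mm10, with ATTTA in capitals.
Csf2: aaatATTTATTTATTTATTTATTTAttttt
Csf3: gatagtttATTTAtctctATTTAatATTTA
Csf1: aaggtcATTTAaatatctATTTAaaaaata
The Csf2 site lies at chr11:54247324-54247353 on the minus strand, the Csf3 site at chr11:98702984-98703013 on the plus strand and the Csf1 site at chr3:107741102-107741131 on the minus strand, all in the 3′ UTR. Overlapping matches were counted, on the transcript strand only. The whole 3′ UTR of Csf2 held 9 ATTTA in 317 bases, that of Csf3 held 6 in 669 bases and that of Csf1 held 4 in 2111 bases. Among other genes' 3′ UTRs cut to the same length, ATTTA occurred in 35.3%, 59.7% and 91.5%, and at least as many copies in 0.00666%, 1.35% and 50.4%, in the order Csf2, Csf3, Csf1. The longer motif TTATTTATT, which contains an ATTTA, occurred 4 times in Csf2 and 0 times in Csf3 and Csf1, against 1.54% of other 3′ UTRs cut to the length of Csf2, 3.79% at that of Csf3 and 10.7% at that of Csf1. A match is a description of the letters and not a measured site of decay.

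With OK-432, Csf3 and its receptor gene Csf3r were the tested members called as higher in the average over tumour types. Averaged over the 3 tumour types with equal weight, Csf3 was higher by 1.55 ± 0.22 and Csf3r by 0.79 ± 0.15 in OK432 than in Ctrl tumours, as differences of log2(TPM + 1) with their SE (limma over all tested genes, Benjamini-Hochberg adjusted p = 0.00364 and 0.0497). The call of Csf3 held in all 18 refits with 1 library left out, while that of Csf3r was lost in 15 of them. This scale understates the change of low genes, and a gene was called at an adjusted p under 0.05. The members called were 2 of 6, where 0.172% of the 16816 tested genes were called. Every OK432 library lay above every Ctrl library of its tumour type for Csf3 and for Csf3r in each of the 3 tumour types, which 0.184% of the tested genes did. Among Ctrl libraries Csf3 reached 1 TPM only in LL2 Ctrl replicates 2 and 3, so it passed the filter through OK432 libraries. Csf2 did not pass and is not among the 6. With the members also chosen with earlier results known, these shares are a description and not a test of the members. The other 4 tested members were not called, and their average differences lay at -0.01 for Csf1, -0.06 for Csf2ra, 0.14 for Csf2rb and 0.09 for Csf2rb2.

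**Figure D1:**
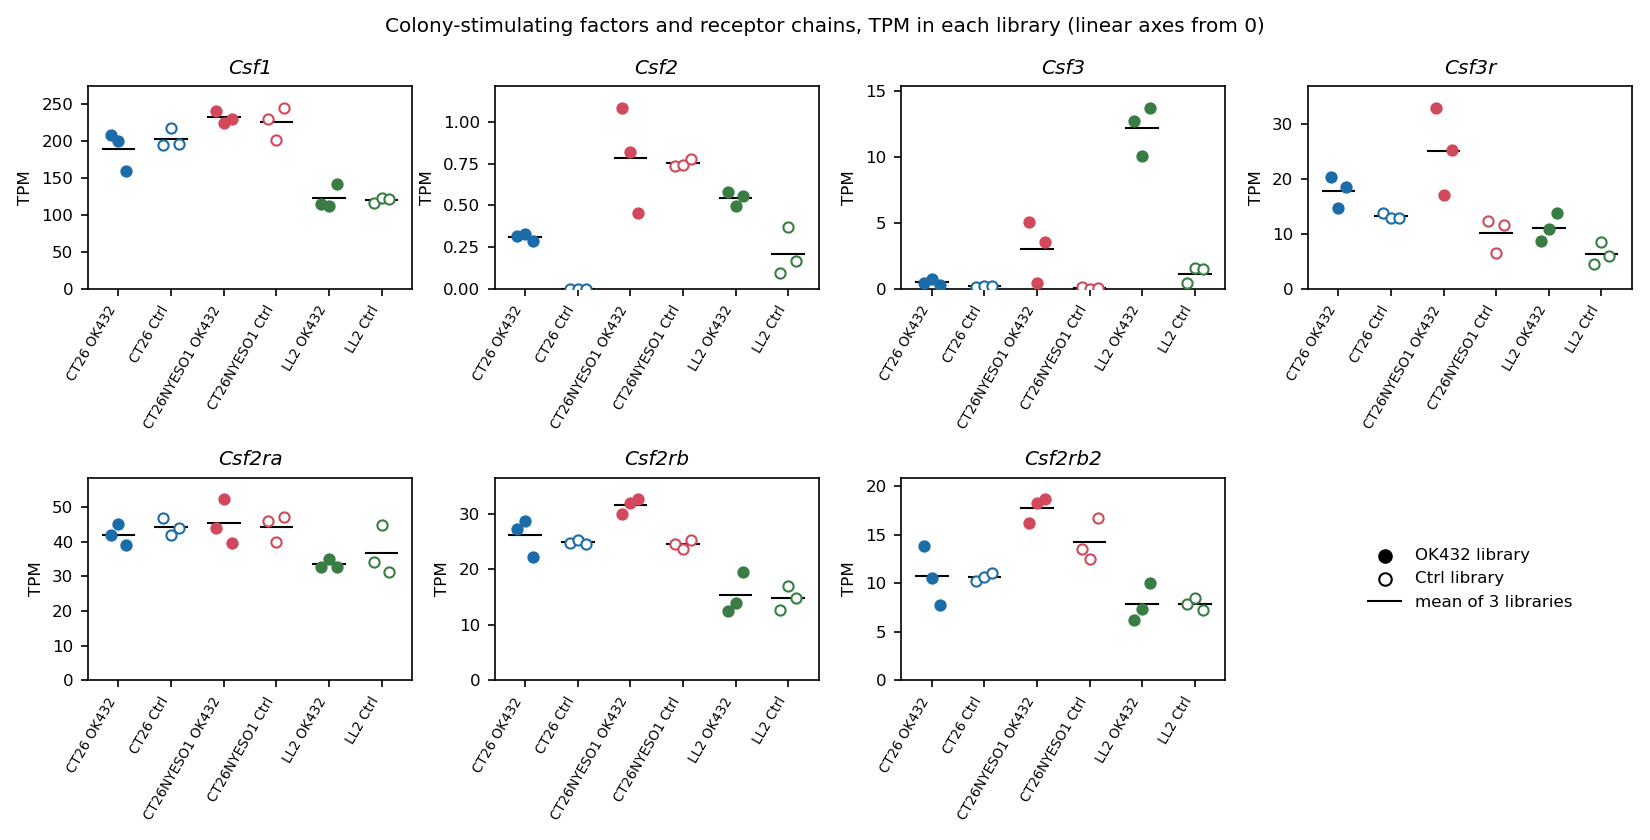
TPM of the 7 genes in each of 18 libraries, on linear axes from 0 with a separate scale for each gene. Filled points are OK432 libraries, open points Ctrl libraries and bars the mean of 3. Csf3 and Csf3r separate in all 3 tumour types, while Csf1, Csf2ra and Csf2rb2 overlap in all 3.

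Csf3, which encodes G-CSF, lies on chromosome 11 at 98701263 to 98703629 on the plus strand of mm10. In LL2 tumours it was 12.7, 10.1 and 13.8 TPM with OK-432 in replicates 1 to 3, against 0.434, 1.55 and 1.499 TPM in Ctrl. The lowest OK432 value was above the highest Ctrl value by more than the whole spread of the Ctrl libraries, and the ratio of the means was 10.5. The difference was 2.65 ± 0.38 (SE, limma adjusted p = 0.0198). Csf3 was 1 of 3 genes called in LL2, 0.0178% of those tested, and the single member among them. The call ended in 6 of 18 refits with 1 library left out: without LL2 Ctrl replicates 2 (2.79, adjusted p = 0.0619) or 3 (2.77, 0.112), LL2 OK432 replicates 1 (2.61, 0.136), 2 (2.77, 0.061) or 3 (2.56, 0.145), or CT26 Ctrl replicate 3 (2.65, 0.0506). It also ended with a pseudocount of 0.1 (3.44, adjusted p = 0.179).

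In CT26NYESO1 tumours Csf3 was 5.10, 0.438 and 3.59 TPM with OK-432, against 0.141, 0 and 0.0721 TPM in Ctrl. All 3 OK432 libraries lay above all Ctrl libraries, but replicate 2 was far below the other OK432 libraries. The difference was 1.68 ± 0.38 (SE) and just missed the threshold (limma adjusted p = 0.0529). Without CT26NYESO1 OK432 replicate 2 it was 2.31 and was called (adjusted p = 2.36e-05), and it was also called with a pseudocount of 0.1 (3.76, adjusted p = 0.0177) and with a weight estimated for each library (1.81, 0.0266). That library had the lowest neutrophil marker level of the treated libraries too, as given below, and it was kept in the values reported here.

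In CT26 tumours Csf3 was 0.444, 0.780 and 0.282 TPM with OK-432 and 0.164, 0.226 and 0.194 TPM in Ctrl. The groups did not overlap, the ratio of the means was 2.58, and the difference of 0.32 ± 0.38 (SE) was not called (limma adjusted p = 1). No gene of the table was called in CT26 (0%), where 689 had an unadjusted p under 0.05, none of them a member. The OK-432 difference of Csf3 was larger in LL2 than in CT26 by 2.33 ± 0.53 and larger in CT26NYESO1 than in CT26 by 1.36 ± 0.53 (SE), and neither was called when the difference itself was tested (limma adjusted p = 0.844 and 0.508). Between LL2 and CT26NYESO1 it was larger in LL2 by 0.97 ± 0.53 (SE, adjusted p = 0.638). Across all tested genes these tests called 0.00595% for LL2 minus CT26 (1 gene), 0% for CT26NYESO1 minus CT26 (1486 genes with an unadjusted p under 0.05) and 0.00595% for LL2 minus CT26NYESO1 (1 gene), and no member in any of them. Without CT26NYESO1 OK432 replicate 2 the tests of Csf3 passed for LL2 minus CT26 (2.33, adjusted p = 0.00434) and for CT26NYESO1 minus CT26 (1.99, 0.011).

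In the order of Csf3 levels LL2 OK432 came first at 12.2 ± 1.90 TPM and did not overlap the next, CT26NYESO1 OK432 at 3.04 ± 2.38 TPM (SD, n = 3 each). LL2 Ctrl at 1.16 ± 0.631 TPM overlapped both CT26NYESO1 OK432 above it and CT26 OK432 below it, at 0.502 ± 0.254 TPM. CT26 Ctrl followed at 0.195 ± 0.0313 TPM, separate from CT26 OK432, and CT26NYESO1 Ctrl, with 1 library listed at 0, came last. Within the summed TPM of the 3 ligand genes, Csf3 held 9.04% ± 0.872 in LL2 OK432, against 0.946% ± 0.496 in LL2 Ctrl.

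Csf2, the gene of GM-CSF, lies on chromosome 11 at 54247271 to 54249667 on the minus strand, 44.5 Mb from Csf3. In CT26 tumours it was 0.314, 0.330 and 0.286 TPM with OK-432 and was listed at 0 in all 3 Ctrl libraries. In LL2 tumours it was 0.578, 0.494 and 0.554 TPM with OK-432, against 0.0949, 0.367 and 0.166 TPM in Ctrl. Both pairs of groups were separate, at levels under 1 TPM. In CT26NYESO1 it was 1.08, 0.818 and 0.452 TPM with OK-432 and 0.733, 0.741 and 0.778 TPM in Ctrl, with the Ctrl values inside the OK432 range. With no filter on low values, when Csf2 enters the fit, the difference was 0.39 in CT26, 0.01 in CT26NYESO1 and 0.36 in LL2, none of them called (limma adjusted p = 0.473, 1 and 0.523). The average of Csf2 over the tumour types in that fit was 0.25 ± 0.06 (SE) and was not called either (limma adjusted p = 0.288).

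Csf1, the gene of M-CSF, lies on chromosome 3 at 107741048 to 107760469 on the minus strand. It was the most abundant ligand in every library and ranked above 95.4% of tested genes in CT26 Ctrl, 96.5% in CT26NYESO1 Ctrl and 92.5% in LL2 Ctrl. It read 207, 200 and 160 TPM in CT26 OK432, against 194, 217 and 196 TPM in CT26 Ctrl. CT26NYESO1 OK432 had 241, 224 and 230 TPM, against 230, 201 and 245 TPM in CT26NYESO1 Ctrl. LL2 OK432 had 114, 111 and 141 TPM, against 116, 123 and 121 TPM in LL2 Ctrl. OK432 and Ctrl overlapped in each tumour type, with differences of -0.10, 0.05 and 0.02 (SE 0.10 each) in CT26, CT26NYESO1 and LL2 (limma adjusted p = 1, 0.887 and 1). Of the summed TPM of the 3 ligands, Csf1 held 99.6% in CT26 OK432 and 99.9% in CT26 Ctrl, 98.4% in CT26NYESO1 OK432 and 99.6% in CT26NYESO1 Ctrl, and 90.6% in LL2 OK432 and 98.9% in LL2 Ctrl. The lower share of Csf1 in LL2 OK432 stood beside overlapping Csf1 levels and the higher Csf3 share given above.

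Csf3r, the G-CSF receptor gene, lies on chromosome 4 at 126024550 to 126044440 on the plus strand. In CT26NYESO1 tumours it was 33.0, 17.0 and 25.3 TPM with OK-432, against 12.4, 6.57 and 11.6 TPM in Ctrl. The groups were separate and the lowest value of each was in replicate 2. Csf3r rose by 1.22 ± 0.26 (SE, limma adjusted p = 0.0462) and was the single member called there, where 0.666% of tested genes were called, 69 higher and 43 lower. The call ended in 14 of 18 refits with 1 library left out (0.96 to 1.37, adjusted p = 0.0557 to 0.236). It held without CT26NYESO1 OK432 replicate 2 (1.46, adjusted p = 0.0061), LL2 Ctrl replicate 1 (1.22, 0.0453), LL2 Ctrl replicate 2 (1.22, 0.0488) or LL2 OK432 replicate 3 (1.22, 0.0444). A further 3 settings ended it: no filter on low values (adjusted p = 0.0934), variance shrinkage with neither trend nor robust estimation (0.0642) and CT26NYESO1 libraries fitted alone (0.372), each at a difference of 1.22.

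In CT26 tumours Csf3r was 20.3, 14.8 and 18.5 TPM with OK-432, against 13.8, 12.8 and 12.9 TPM in Ctrl. In LL2 tumours it was 8.73, 10.9 and 13.8 TPM with OK-432, against 4.46, 8.501 and 6.05 TPM in Ctrl. The OK432 libraries lay above all Ctrl libraries in both by small margins, since the lowest OK432 library had 14.8 TPM against a highest Ctrl library of 13.8 TPM in CT26, and 8.73 TPM against 8.501 TPM in LL2. The differences of 0.40 and 0.74 (SE 0.26 each) were not called (limma adjusted p = 1 and 0.777). Between tumour types the OK-432 difference of Csf3r was 0.82 ± 0.36 larger in CT26NYESO1 than in CT26, 0.34 ± 0.36 larger in LL2 than in CT26 and 0.48 ± 0.36 smaller in LL2 than in CT26NYESO1 (SE), and none of these was called (limma adjusted p = 0.542, 0.998 and 0.765). The average over the 3 types, called in the fit of all libraries, lost its call in 15 of 18 refits with 1 library left out (0.70 to 0.84, adjusted p up to 0.139). It held without CT26NYESO1 OK432 replicate 2 (0.87, adjusted p = 0.00521), LL2 Ctrl replicate 2 (0.86, 0.0288) or LL2 OK432 replicate 1 (0.84, 0.0474). The average of Csf3 stayed called in all 18 refits, at 1.41 to 1.76 (adjusted p up to 0.0146).

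**Figure D2:**
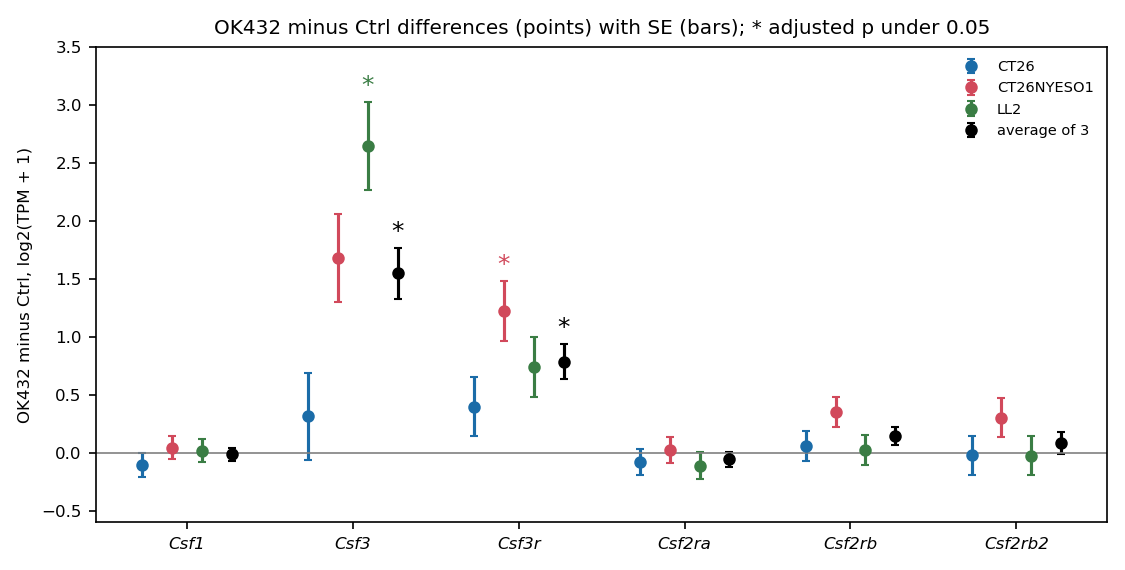
Difference of log2(TPM + 1), OK432 minus Ctrl, for the 6 tested genes in each tumour type and for the average of 3, with bars of 1 SE. Stars mark an adjusted p under 0.05: Csf3 in LL2, Csf3r in CT26NYESO1, and both in the average.

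Neutrophil marker transcripts were also higher in OK432 libraries and stand beside each Csf3r and Csf3 value. The summed TPM of 13 markers, among them the calprotectin genes S100a8 and S100a9 and the granule gene Mmp8, was 108 to 192 in CT26 OK432 against 29.5 to 41.7 in CT26 Ctrl. It was 102 to 739 in CT26NYESO1 OK432 against 25.05 to 33.5 in CT26NYESO1 Ctrl, and 153 to 271 in LL2 OK432 against 33.5 to 47.1 in LL2 Ctrl. The value of 102 was CT26NYESO1 OK432 replicate 2, the library with the lowest Csf3r and Csf3 of that group. The granule gene Ngp and Wfdc21 were listed at 0 in all libraries of CT26 Ctrl and LL2 Ctrl, and Wfdc21 in all of CT26NYESO1 Ctrl, while no marker was at 0 throughout an OK432 group.

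Of the 13 neutrophil markers 9 were tested. Of these, 0 were called in CT26, 3 in CT26NYESO1 and 0 in LL2, and all 9 differences were positive in each type. Wfdc21, at 0 in every Ctrl library, passed the filter through OK432 libraries, so its difference could not be negative. The shared sign is therefore a description and not a test. An unadjusted p under 0.05 (limma) was reached by 4 of the 9 in CT26, 8 in CT26NYESO1 and 5 in LL2. Of the 16816 tested genes 689, 2727 and 884 reached it. In the average over the tumour types 3 of the 9 markers were called, S100a9, S100a8 and Retnlg. The median difference of the 9 tested markers was 0.87 in CT26, 1.87 in CT26NYESO1 and 0.89 in LL2. Over all tested genes the medians were 0.00, -0.02 and -0.01. S100a9 was higher by 6.04 (limma adjusted p = 0.00434), S100a8 by 4.62 (0.00954) and the decoy receptor gene Il1r2 by 1.98 (0.0426) in CT26NYESO1. The part of neutrophil number in the Csf3r values was not tested. In whole tumours more cells of a type and more RNA per cell cannot be told apart.

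**Figure D3:**
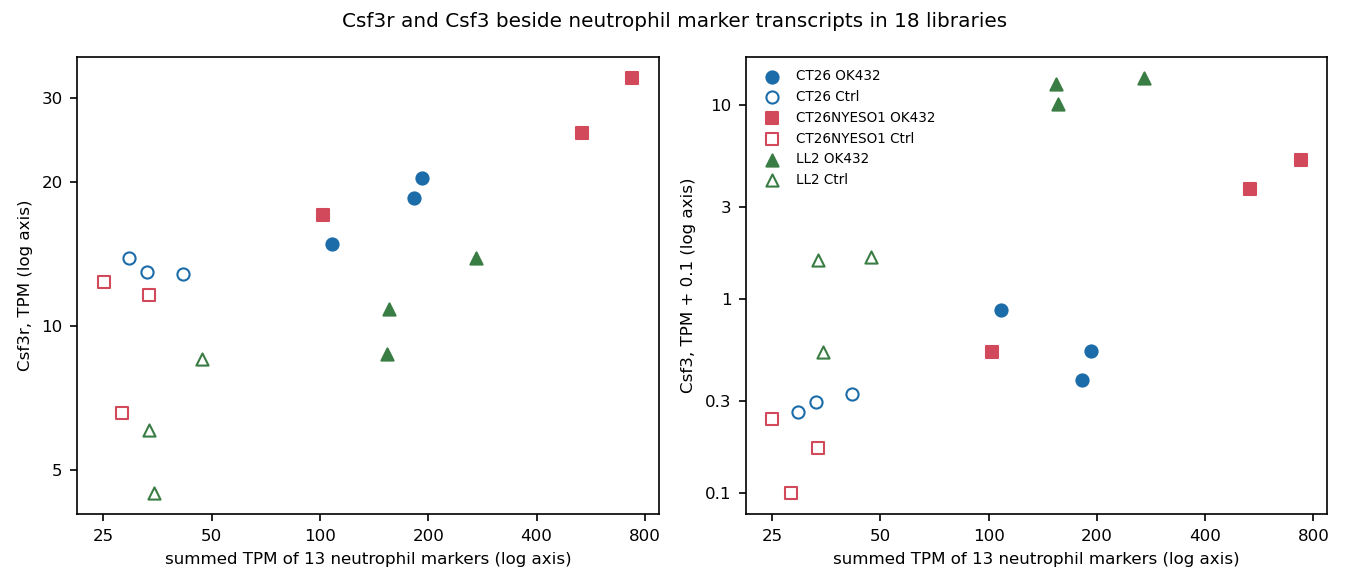
Csf3r (left, TPM) and Csf3 (right, TPM + 0.1) against the summed TPM of 13 neutrophil markers in 18 libraries, all axes logarithmic. Filled symbols are OK432 and open symbols Ctrl libraries; all OK432 libraries lie at sums of 102 or more and all Ctrl libraries at 47.1 or less.

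The GM-CSF receptor alpha chain gene Csf2ra, on chromosome 19 at 61223957 to 61228429 on the minus strand, overlapped between OK432 and Ctrl in every tumour type. It was 41.9, 45.1 and 39.0 TPM in CT26 OK432, against 47.0, 42.0 and 43.9 TPM in CT26 Ctrl. CT26NYESO1 OK432 had 43.9, 52.3 and 39.7 TPM, against 46.0, 40.1 and 47.1 TPM in CT26NYESO1 Ctrl. LL2 OK432 had 32.8, 34.9 and 32.7 TPM, against 34.1, 44.8 and 31.2 TPM in LL2 Ctrl. Neighbouring groups in the order of means, from CT26NYESO1 OK432 at 45.3 TPM to LL2 OK432 at 33.5 TPM, overlapped too. Differences were -0.08, 0.02 and -0.11 (SE 0.12 each) in CT26, CT26NYESO1 and LL2, none of them called (limma adjusted p = 1, 0.962 and 1).

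The beta common chain gene Csf2rb lies on chromosome 15 at 78325752 to 78353847 on the plus strand. In CT26NYESO1 tumours it was 30.02, 32.0 and 32.6 TPM with OK-432, against 24.5, 23.7 and 25.2 TPM in Ctrl, with no overlap. The difference of 0.35 ± 0.13 (SE) was not called (limma adjusted p = 0.189). Groups that did not overlap, in either direction, were found for 3 of 6 tested members in CT26NYESO1 (Csf3, Csf3r and Csf2rb), where 17% of tested genes showed this, and for 2 of 6 (Csf3 and Csf3r) in CT26 and LL2, where 9.89% and 9.87% did. Csf3 is counted here although, as given above, it passed the filter through OK432 libraries. Csf2rb was 27.3, 28.7 and 22.2 TPM in CT26 OK432 against 24.7, 25.4 and 24.6 TPM in CT26 Ctrl, and 12.4, 14.0 and 19.6 TPM in LL2 OK432 against 12.8, 17.0 and 14.9 TPM in LL2 Ctrl. Both of these pairs overlapped, with differences of 0.06 and 0.02.

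Csf2rb2, the copy whose product serves IL-3, lies 20.03 kb away on the opposite strand, at 78282507 to 78305721. It was 13.9, 10.5 and 7.79 TPM in CT26 OK432, against 10.2, 10.7 and 11.1 TPM in CT26 Ctrl. CT26NYESO1 OK432 had 16.2, 18.3 and 18.6 TPM, against 13.5, 12.5 and 16.7 TPM in CT26NYESO1 Ctrl. LL2 OK432 had 6.21, 7.31 and 10.05 TPM, against 7.88, 8.44 and 7.29 TPM in LL2 Ctrl. OK432 and Ctrl overlapped in each tumour type, and none of the differences of -0.02, 0.30 and -0.02 (SE 0.17 each) was called (limma adjusted p = 1, 0.394 and 1).

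The sequences of the pair bear on how far their values are separate, since reads within shared stretches can be assigned to either gene. Their coding sequences aligned over 2631 bases with 95.2% identity, and 26.0% of the 50-base and 11.03% of the 100-base words of Csf2rb occurred unchanged in Csf2rb2. The longest shared coding run had 242 bases, at chr15:78348577-78348818 on the plus strand in Csf2rb and chr15:78284630-78284871 on the minus strand in Csf2rb2 (GENCODE M21, mm10).
Shared run: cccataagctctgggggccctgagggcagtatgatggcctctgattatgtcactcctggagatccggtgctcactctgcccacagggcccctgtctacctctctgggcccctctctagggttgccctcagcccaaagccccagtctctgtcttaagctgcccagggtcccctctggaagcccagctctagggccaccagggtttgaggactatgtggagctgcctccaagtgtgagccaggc
The 60 aligned coding bases with the most differences held 13, shown in capitals, at chr15:78338893-78338952 on the plus strand in Csf2rb and chr15:78294379-78294438 on the minus strand in Csf2rb2.
Csf2rb: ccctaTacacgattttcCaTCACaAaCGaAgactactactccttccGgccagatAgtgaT
Csf2rb2: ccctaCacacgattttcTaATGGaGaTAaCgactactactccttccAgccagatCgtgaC
The level of either gene is therefore uncertain to the extent that the authors’ counting split shared reads, so their sum is given too.

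In each tumour type the part of Csf2rb2 in the pair differed between OK432 and Ctrl by less than the larger group SD. Its share of the summed TPM was 28.8% ± 4.21 in CT26 OK432 and 29.95% ± 0.999 in CT26 Ctrl, 35.9% ± 0.786 in CT26NYESO1 OK432 and 36.6% ± 2.84 in CT26NYESO1 Ctrl, and 33.9% ± 0.518 in LL2 OK432 and 34.7% ± 2.999 in LL2 Ctrl (SD, n = 3 each). The mean difference was -0.906 percentage points (two-sided exact permutation test over 8000 assignments within tumour types, p = 0.413, smallest possible 0.00025). Without any 1 library it lay between -1.71 and -0.329 points. Summed before the fit, the pair differed by 0.04 in CT26, 0.34 in CT26NYESO1 and 0.00 in LL2 (SE 0.14 each), none of them called (limma adjusted p = 1, 0.222 and 1). The ratio of Csf2ra to the summed beta chains was 1.15 in CT26 OK432 and 1.25 in CT26 Ctrl, 0.922 in CT26NYESO1 OK432 and 1.15 in CT26NYESO1 Ctrl, and 1.502 in LL2 OK432 and 1.61 in LL2 Ctrl.

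**Figure D4:**
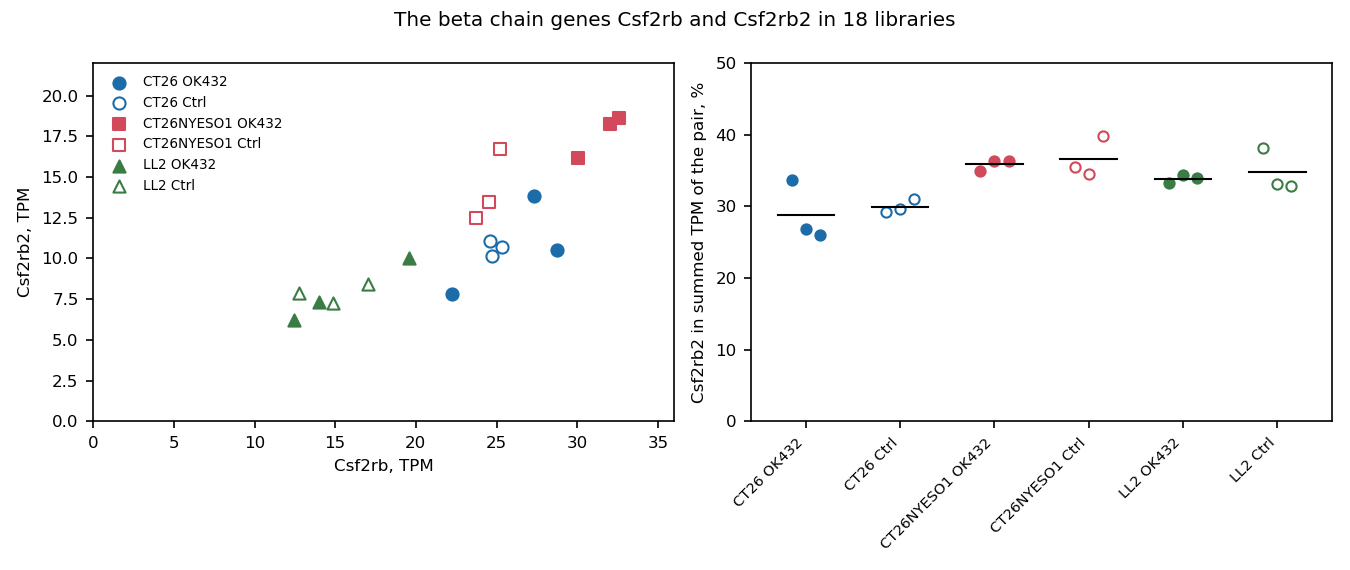
Left, TPM of Csf2rb2 against TPM of Csf2rb in 18 libraries. Right, Csf2rb2 as a percentage of their summed TPM, with bars at the mean of 3; the share lies at 28.8% and 29.95% in the CT26 groups and at 33.9% to 36.6% in the other 4.

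The genes around these ligands and receptors were described by 7 lists. Among 5 tested cytokine genes known to induce colony-stimulating factors, Il1b and Il1a were called in CT26NYESO1, with a list median of 1.01 against -0.02 over all tested genes. Il1b, which encodes interleukin-1 beta, averaged 158 ± 89.7 TPM in CT26NYESO1 OK432 and 17.7 ± 4.97 TPM in CT26NYESO1 Ctrl (SD, n = 3 each), a rise of 2.90 (limma adjusted p = 0.0148). Il1a, which encodes interleukin-1 alpha, averaged 6.89 ± 3.70 TPM in CT26NYESO1 OK432 and 1.21 ± 0.390 TPM in CT26NYESO1 Ctrl, a rise of 1.72 (adjusted p = 0.0246). Neither was called in CT26 (0.69 for Il1b and 1.16 for Il1a) or LL2 (1.116 and 0.85), where the list medians were 0.15 and 0.53. In the average over the 3 tumour types both were called, Il1b at 1.57 (adjusted p = 0.0191) and Il1a at 1.24 (0.00378). Of 10 decay factors that act on AU-rich or related transcripts, 1 was called, Zc3h12a in CT26NYESO1. It encodes the endoribonuclease Regnase-1 and averaged 23.6 ± 3.06 TPM in CT26NYESO1 OK432 and 13.7 ± 2.23 TPM in CT26NYESO1 Ctrl, a rise of 0.75 (adjusted p = 0.0217).

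Among genes that act downstream of the receptors none passed the test with OK-432. None of 16 signalling genes was called in any tumour type or in the average, with medians of -0.03, -0.01 and -0.05 in CT26, CT26NYESO1 and LL2. An unadjusted p under 0.05 (limma) was reached by 0, 2 and 1 of them, to be read against the counts over all tested genes given above, as are the counts that follow. Jak1, a kinase of this pathway, differed by 0.00, 0.04 and -0.03. None of 12 STAT targets and feedback genes was called either, with medians of -0.10, 0.05 and 0.09 and an unadjusted p under 0.05 for 0, 3 and 1 of them, and the feedback inhibitor Socs1 differed by -0.24, -0.24 and 0.08. Socs3, named after its values were seen as the feedback inhibitor known to act on the G-CSF receptor, differed by 0.66 in CT26NYESO1 (adjusted p = 0.101). Of 7 tested myeloid transcription factors 0 were called (0, 1 and 2 at an unadjusted p under 0.05), with medians of -0.09, -0.01 and 0.04, and Cebpa, which is needed for granulocyte formation, differed by 0.03, -0.14 and 0.02. In the average over the tumour types 2 of the 16, 4 of the 12 and 3 of the 7 had an unadjusted p under 0.05 (limma). That was reached by 1735 of the 16816 tested genes.

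The related cytokines and receptor chains showed no call with OK-432, and 0 of them had an unadjusted p under 0.05 (limma). Of 5 cytokines, 3 were tested, with medians of 0.02, -0.11 and -0.04 in CT26, CT26NYESO1 and LL2. Il3, the ligand served by Csf2rb2, was listed at 0 in every OK432 library and in every LL2 Ctrl library, and its highest Ctrl values were 0.157 TPM in CT26 and 0.218 TPM in CT26NYESO1. Il34, the other ligand of the M-CSF receptor, was tested and averaged 30.7 TPM in CT26 OK432 and 28.8 TPM in CT26 Ctrl, 30.7 TPM in CT26NYESO1 OK432 and 33.0 TPM in CT26NYESO1 Ctrl, and 28.6 TPM in LL2 OK432 and 26.5 TPM in LL2 Ctrl. It was named after its values were seen, as was Il5ra. Of 4 receptor chains, 3 were tested, with medians of -0.13, 0.07 and 0.05. Il3ra, the alpha chain of the IL-3 receptor, differed by -0.11, -0.12 and 0.05, while Il5ra, the alpha chain of the IL-5 receptor, did not exceed 0.0766 TPM in any library and was not tested.

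**Figure D5:**
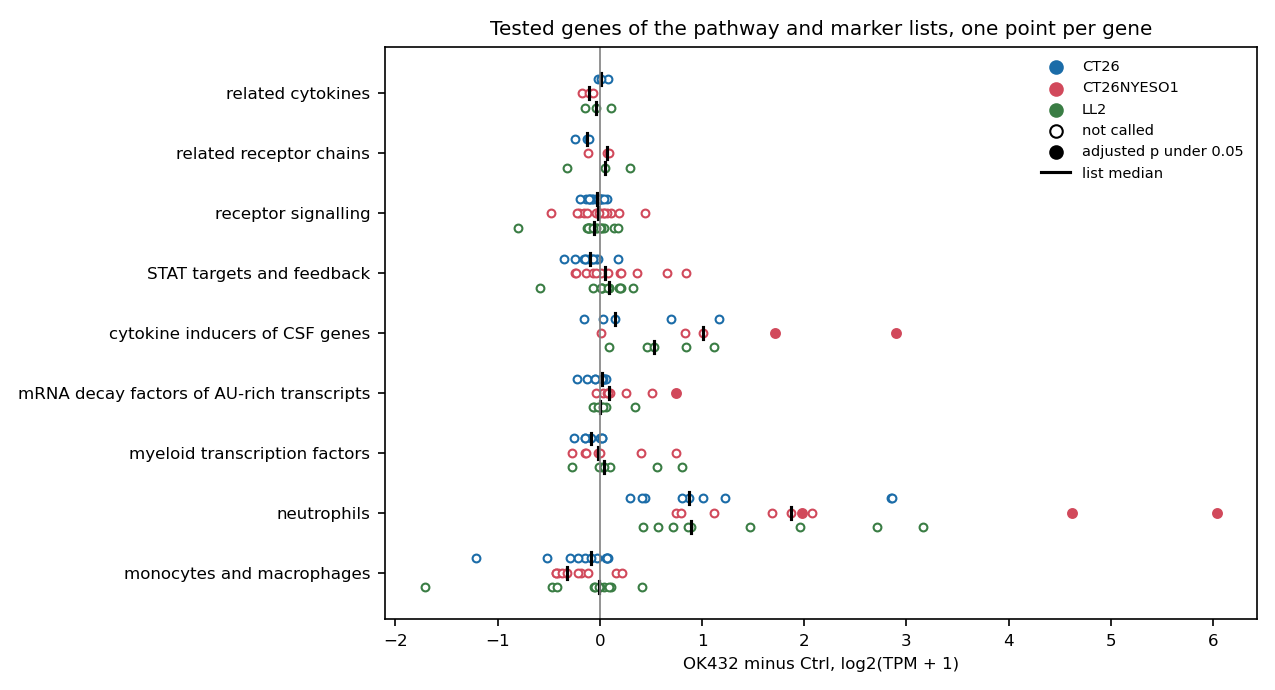
Difference of log2(TPM + 1), OK432 minus Ctrl, for each tested gene of the 7 pathway lists and of the neutrophil and macrophage marker lists, coloured by tumour type. Filled points passed an adjusted p of 0.05 and black bars are list medians; the filled points are in CT26NYESO1, 2 among the inducers, 1 among the decay factors and 3 among the neutrophil markers.

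In untreated tumours the members differed by tumour type, as most genes did. In LL2 Ctrl against CT26 Ctrl, 5 of 6 tested members were lower, where 68.8% of tested genes were called in either direction. The differences were -0.75 for Csf1 (limma adjusted p = 4.59e-06), -0.71 for Csf2rb (0.000118), -0.99 for Csf3r (0.00289), -0.28 for Csf2ra (0.0392) and -0.39 for Csf2rb2 (0.0464). Csf3 was 0.81 higher in LL2 Ctrl and missed the threshold (0.0674). It was called with a pseudocount of 0.1 (1.93, adjusted p = 0.0164), after quantile scaling (0.90, 0.0479), with a weight for each library (0.92, 0.0136), and without CT26NYESO1 OK432 replicate 1 (0.0336) or 2 (0.00198) or LL2 Ctrl replicate 1 (0.0273). The call of Csf2rb2 ended in 12 and that of Csf2ra in 4 of 18 refits with 1 library left out, at -0.44 to -0.35 and -0.43 to -0.18 over all refits (adjusted p up to 0.127 and 0.207). After median-of-ratios rescaling neither was called (-0.30 and -0.18, adjusted p = 0.122 and 0.167), nor after quantile scaling (-0.13 and -0.15, adjusted p = 0.483 and 0.233).

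In LL2 Ctrl against CT26NYESO1 Ctrl, 4 members were lower and 1 was higher, where 66.3% of tested genes were called. The differences were -0.90 for Csf1 (limma adjusted p = 6.54e-07), -0.77 for Csf2rb2 (0.000657), -0.69 for Csf2rb (0.00018) and -0.28 for Csf2ra (0.0405). The call of Csf2ra ended in 4 of 18 refits (limma adjusted p up to 0.211) and with no filter on low values (0.0899). It also ended under variance shrinkage with neither trend nor robust estimation (0.0534). Csf3 was higher by 0.97 (0.0328), a call that ended in 5 of 18 refits (0.82 to 1.24, adjusted p up to 0.106), with a pseudocount of 5 (0.28, 0.135) and with no filter on low values (0.0692), and the difference of -0.60 for Csf3r missed the threshold (0.0506). Csf3r was called in 6 of 18 refits, with a pseudocount of 0.1 (-0.67, adjusted p = 0.0456), after median-of-ratios (-0.70, 0.0238) or quantile scaling (-0.62, 0.040), and with a weight for each library (-0.63, 0.0198). Monocyte and macrophage markers were lower in LL2 Ctrl too. Their summed TPM was 1396 to 1674 in LL2 Ctrl, against 2787 to 3129 in CT26 Ctrl and 2490 to 3320 in CT26NYESO1 Ctrl. Of the 11 markers 8 were lower in LL2 Ctrl than in CT26 Ctrl (median -0.80) and 9 lower than in CT26NYESO1 Ctrl (median -0.70), with 0 higher. Their part in the receptor values was not tested. With OK-432 none of the 11 was called in any tumour type (1, 2 and 2 at an unadjusted p under 0.05 in limma), with medians of -0.09, -0.32 and -0.01 in CT26, CT26NYESO1 and LL2.

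In CT26NYESO1 Ctrl against CT26 Ctrl none of the 6 members was called, where 64.9% of tested genes were. The median over all tested genes was -0.18 in this comparison, so the values depend on the scaling. As deposited, Csf2rb2 was 0.38 higher (limma adjusted p = 0.0579), Csf1 0.15 higher (0.204) and Csf2rb at -0.02 (0.892). After median-of-ratios rescaling Csf2rb2 was 0.58 higher (adjusted p = 0.00636) and Csf1 0.37 higher (0.00464), both called, and Csf2rb turned to 0.19 (0.226). Csf2, with no filter on low values, was 0.733 to 0.778 TPM in CT26NYESO1 Ctrl against 0 in CT26 Ctrl, a difference of 0.81 (adjusted p = 2.83e-05), and LL2 Ctrl minus CT26NYESO1 Ctrl was -0.54 (0.00112).

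Markers of dendritic cells, eosinophils and mast cells, T and NK cells, B cells, endothelial cells, fibroblasts, epithelial cells and skeletal muscle had 0 called genes with OK-432 in each tumour type and in the average by limma, and at most 1 per list at an unadjusted p under 0.05. The 4 tested skeletal muscle genes had medians of 1.29 in CT26, -0.83 in CT26NYESO1 and -0.13 in LL2.

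Across the 18 libraries, log2(TPM + 1) was centred on the mean of each tumour type. Csf3 and Csf3r then varied together (Pearson r = 0.82), as did Csf2rb and Csf2rb2 (0.79). Csf1 with Csf2rb2 was close to these at 0.76. Csf1 with Csf2rb stood at 0.63 and Csf3r with Csf2rb at 0.62. These are descriptions over libraries that share the OK-432 treatment and the processing, with no test. Csf3 was most like Hdc (0.90), which encodes histidine decarboxylase and is on the neutrophil list, then Ptgs2 (0.89), the inducible cyclooxygenase, Slpi (0.89), a leukocyte peptidase inhibitor, Cxcl3 (0.88), a neutrophil-attracting chemokine, and Sod2 (0.88), a mitochondrial superoxide dismutase. Csf3r was most like Arg2 (0.92), a mitochondrial arginase, Hdc (0.91), Cd14 (0.91), a lipopolysaccharide co-receptor, Lcn2 (0.91), a siderophore-binding protein, and Nos2 (0.91), the inducible nitric oxide synthase. Csf2ra was most like Arrb2 (0.86), Myo1f (0.85), Ptpn18 (0.82), Spi1 (0.81) and Gm21188 (0.79), of which Spi1 encodes the myeloid transcription factor PU.1. The 5 genes most like Csf1 were led by Ppt2 (0.89), those most like Csf2rb by Safb2 (0.84) and those most like Csf2rb2 by Hivep1 (0.81).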

How the data were processed

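The authors deposited 1 table of TPM values for 55291 genes in 18 libraries, each summing to 1000000. TRIzol was used for RNA and a TruSeq stranded kit for mRNA libraries, per the labels' protocols. Trim Galore 0.6.5, STAR 2.7.3a, StringTie 2.1.2 and the build mm10 are named, per the submitters' processing notes. No annotation, strand setting or filter was found in these sources.

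Values were analysed as log2(TPM + 1). Genes with at least 1 TPM in at least 3 libraries (16816) entered 1 limma fit of 6 group means (version 3.58.1, R 4.3.3; shrinkage trended and robust), with 12 residual degrees of freedom. Adjustment (Benjamini-Hochberg) ran over all tested genes in each of 10 comparisons. The procedure was tested on simulated data. The Csf2rb2 share was compared by an exact permutation test within tumour types. Named genes are the members, up to 3 called genes or else the first of each pathway, neutrophil and macrophage list, and the 5 genes of at least 5 TPM most correlated with each tested member. The members and lists were chosen with earlier results of these data known. Positions and sequences come from GENCODE M21. Alternatives comprised 11 settings and 18 refits without 1 library.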

Additional observations from a re-analysis of the deposited data

How the results depend on the processing

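The number of members called with OK-432 in CT26 (0 of 6), the difference of effects between LL2 and CT26NYESO1 (0) and the direction of Csf3 and Csf3r with OK-432 in each tumour type held under all settings tried. In CT26NYESO1, where 1 member was called, a pseudocount of 0.1 gave 2, library weights 2, no filter on low values 0, variance shrinkage with neither trend nor robust estimation 0 and the tumour type fitted alone 0. In LL2 a pseudocount of 0.1 gave 0 in place of 1. For the average, 2 members became 1 with a pseudocount of 5, with no filter, with a filter at 5 TPM and with that shrinkage. In CT26NYESO1 Ctrl against CT26 Ctrl, 0 became 1 with a pseudocount of 5 and with no filter, and 2 with median-of-ratios or quantile scaling. In LL2 Ctrl against CT26 Ctrl, 5 became 3 with no filter, with median-of-ratios scaling and with that shrinkage. Leaving out 1 library gave 0 to 2 members in CT26NYESO1, 0 to 1 in LL2, 1 to 2 in the average, 0 to 1 in each of the differences of effects against CT26, and 0 to 1, 3 to 5 and 3 to 6 in the control comparisons CT26NYESO1 minus CT26, LL2 minus CT26 and LL2 minus CT26NYESO1. The cause of these changes was not tested.

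Sign changes occurred among differences that were not called. The difference of Csf3 effects between LL2 and CT26NYESO1 was -0.32 with a pseudocount of 0.1. In CT26NYESO1 Ctrl against CT26 Ctrl, Csf2rb was 0.19 with median-of-ratios and 0.23 with quantile scaling. Library weights gave 0.019 for Csf2rb2 in CT26, -0.021 for Csf2ra in CT26NYESO1, and -0.035 for Csf1 and -0.065 for Csf2rb in LL2. Without 1 library, differences with OK-432 in CT26 lay at -0.18 to 0.013 for Csf1, -0.013 to 0.16 for Csf2rb and -0.21 to 0.17 for Csf2rb2. In CT26NYESO1 they lay at -0.034 to 0.11 for Csf1 and -0.083 to 0.11 for Csf2ra. In LL2 they lay at -0.088 to 0.081 for Csf1, -0.22 to 0.037 for Csf2ra, -0.16 to 0.15 for Csf2rb and -0.19 to 0.11 for Csf2rb2. The average of Csf1 lay at -0.049 to 0.026, and Csf2ra in CT26NYESO1 Ctrl against CT26 Ctrl at -0.043 to 0.071. For the Csf2rb2 share, a log2 ratio in place of the percentage gave -0.0586 (exact permutation test, p = 0.385).

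Whether replicate numbers pair the samples is not known. Deviations of same-numbered OK432 and Ctrl libraries correlated at -0.122 to 0.219, and those of differently numbered libraries at -0.194 to 0.262. Deviations from a mean of 3 libraries are tied to one another, so these ranges cannot show that pairing is absent. With the replicate block the members called numbered 1 in CT26NYESO1, 1 in LL2 and 2 in the average. In that fit each group term was the fitted level at replicate 1, with a separate block in each tumour type. Its control comparisons are therefore differences at replicate 1 and not of group means, and cannot show whether the control calls hold under blocking. They gave 4 members called in each LL2 control comparison. At replicate 1, LL2 Ctrl minus CT26NYESO1 Ctrl was 0.27 for Csf3 (limma adjusted p = 0.652), -0.35 for Csf2ra (0.0959) and -1.31 for Csf3r (0.000166). LL2 Ctrl minus CT26 Ctrl was -0.38 for Csf2ra (0.0686). In CT26NYESO1 Ctrl against CT26 Ctrl, Csf3 was 0.34 and Csf2ra was -0.033, also at replicate 1. The Csf2rb2 share stayed at -0.906 points (exact permutation test, p = 0.426). TPM hides depth, so values under 1 TPM (Csf2 in all but 1 library, Csf3 in CT26, in CT26NYESO1 Ctrl and in CT26NYESO1 OK432 replicate 2 and LL2 Ctrl replicate 1) have an unknown counting error.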
